A study of Mus musculus with 6 samples.

Results

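The 9 listed genes of the Hedgehog pathway, of 24010 named genes on the arrays, were followed in cultured mouse dorsal pancreatic buds under 2 inhibitors of BET proteins. They were taken by name: the ligands Shh, Ihh and Dhh, the receptor Ptch1, the transducer Smo, the ligand-binding inhibitor Hhip, and the transcription factors Gli1, Gli2 and Gli3. All 9 had a row. The 3 groups compared held 2 arrays each: buds with I-BET151 at 500 nM, buds with JQ1 at 100 nM, and control buds (CTRL) with 0.1% DMSO. Every bud came from an embryo at E11.5 and was cultured for 24 h, and each array held RNA from 1 pool of 10 buds; strain and litter are not given in the sources used here. BET proteins are chromatin readers that bind acetylated histones, and I-BET151 and JQ1, which have different chemical scaffolds, occupy the same bromodomain pockets.

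Hedgehog ligands bind Ptch1, which otherwise holds Smo inactive. Once released, active Smo in the primary cilium keeps Gli2 and Gli3 from being processed to repressors, and Gli1, Ptch1 and Hhip are transcribed in turn as classical pathway targets. Shh marks most of the early gut epithelium, but it is kept out of the dorsal pancreatic endoderm by signals from the notochord, and its forced expression there disturbs pancreas formation. Hhip limits signalling by binding the ligands.

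In these buds Hhip, the secreted and membrane-bound antagonist of the ligands, was the member that passed the test. It fell 1.87-fold under JQ1 and stood 1.46-fold lower under I-BET151, where it missed the threshold. The other 2 classical targets, Ptch1 and Gli1, were not called under either compound, nor were the 3 ligands, Smo, Gli2 or Gli3. The levels are intensities on a linear scale after RMA normalization, and a gene was called at a limma adjusted p under 0.05 over all 24010 genes. Among the 9 members, 0 rose and 0 fell under I-BET151, against 0.262% of all genes called higher and 0.87% called lower; 3 members and 18.9% of all genes had an unadjusted limma p under 0.05. Under JQ1, 0 rose and 1 fell, against 1.13% higher and 2.67% lower; 1 member and 21.6% of all genes had an unadjusted p under 0.05. For the mean of both inhibitors, 0 rose and 1 fell, against 1.59% and 3.33%. The median log2 change of the 9 members was -0.01 under I-BET151 and 0.14 under JQ1, where the medians of all genes were 0.00 and 0.02. Of all genes, 63 were called higher and 209 lower under I-BET151, 272 and 640 under JQ1, and 382 and 799 for both; with each array centred on its median these splits were 183 and 350, 664 and 727, and 881 and 857.

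Hhip and Ptch1 are both standard readouts of Gli activity, and of them only Hhip was called, so their promoter windows are shown; the difference between the 2 genes was not tested. Each runs from 250 bases before to 50 bases after the RefSeq start, on the gene's own strand in GRCm38.p6, the Hhip window at chr8:80057959-80058258 (minus strand) and the Ptch1 window at chr13:63565686-63565985 (minus strand). Capitals mark CCACCC, the core of the Gli binding motif, on either strand.
Hhip: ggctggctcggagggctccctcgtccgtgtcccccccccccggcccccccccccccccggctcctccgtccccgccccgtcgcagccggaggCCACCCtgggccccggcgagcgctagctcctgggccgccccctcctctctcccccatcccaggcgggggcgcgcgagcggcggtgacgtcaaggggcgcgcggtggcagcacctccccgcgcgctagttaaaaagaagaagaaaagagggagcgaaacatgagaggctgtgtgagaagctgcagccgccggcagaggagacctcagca
Ptch1: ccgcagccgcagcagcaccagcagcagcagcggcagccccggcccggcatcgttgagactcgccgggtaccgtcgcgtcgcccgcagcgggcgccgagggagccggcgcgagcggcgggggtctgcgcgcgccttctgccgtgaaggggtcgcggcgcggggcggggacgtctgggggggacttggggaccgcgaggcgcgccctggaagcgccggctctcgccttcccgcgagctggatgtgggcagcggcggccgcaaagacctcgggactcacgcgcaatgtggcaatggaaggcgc
The Hhip window held 1 copy of the core, 158 bases before the start, and the Ptch1 window held 0. The windows of Ihh, Dhh, Smo, Gli2 and Gli3 also held 1 or 2 copies of the core each, and none of these genes was called. Whether the core bears on the change of Hhip was not tested. The full consensus GACCACCCA, which overlaps the core and was also searched on both strands, was in neither, nor in the windows of the other 5 members with an entry. Of 32851 windows of this length in the RefSeq table, 0.253% held the consensus and 31.5% held the core. Both windows were rich in G and C, at 73.7% for Hhip and 76.3% for Ptch1, against a median of 52.7% over all windows. They held 30 and 47 CpG pairs, against a median of 7. The windows describe letters near 1 start site each, and Gli factors often bind far from it.

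Hhip measured 76 and 80 on the I-BET151 arrays, 63 and 59 on the JQ1 arrays, and 110 and 118 on the CTRL arrays. The 3 groups did not overlap, with JQ1 lowest and CTRL highest. Group means were 78.0 ± 2.83 under I-BET151, 61.0 ± 2.83 under JQ1 and 114 ± 5.66 in CTRL (SD, n = 2 each). The log2 change was -0.90 ± 0.07 under JQ1 (SE, limma adjusted p = 0.0156), with a 95% interval of -1.09 to -0.71. Under I-BET151 it was -0.55 ± 0.07, with an interval of -0.74 to -0.36 (limma adjusted p = 0.0566). For the mean of both inhibitors, Hhip fell by 0.72 on the log2 scale (limma adjusted p = 0.0162). Of all genes, 1.22% had a more negative log2 change under JQ1 and 2.74% under I-BET151.

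With no genes filtered out, the call for Hhip under JQ1 depended on having all 6 arrays. When any single array of the 6 was dropped, whichever group it came from, its log2 change under JQ1 stayed between -0.95 and -0.85, but the limma adjusted p was 0.0739 to 0.160 and no gene on the array passed. When the dimmer genes, those under the median of gene means, were dropped as well, Hhip passed under JQ1 in all 6 of these fits (limma adjusted p = 0.00325 to 0.0120). With all 6 arrays kept and only the dimmer genes dropped, it also passed under I-BET151 (limma adjusted p = 0.00891).

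**Figure D1:**
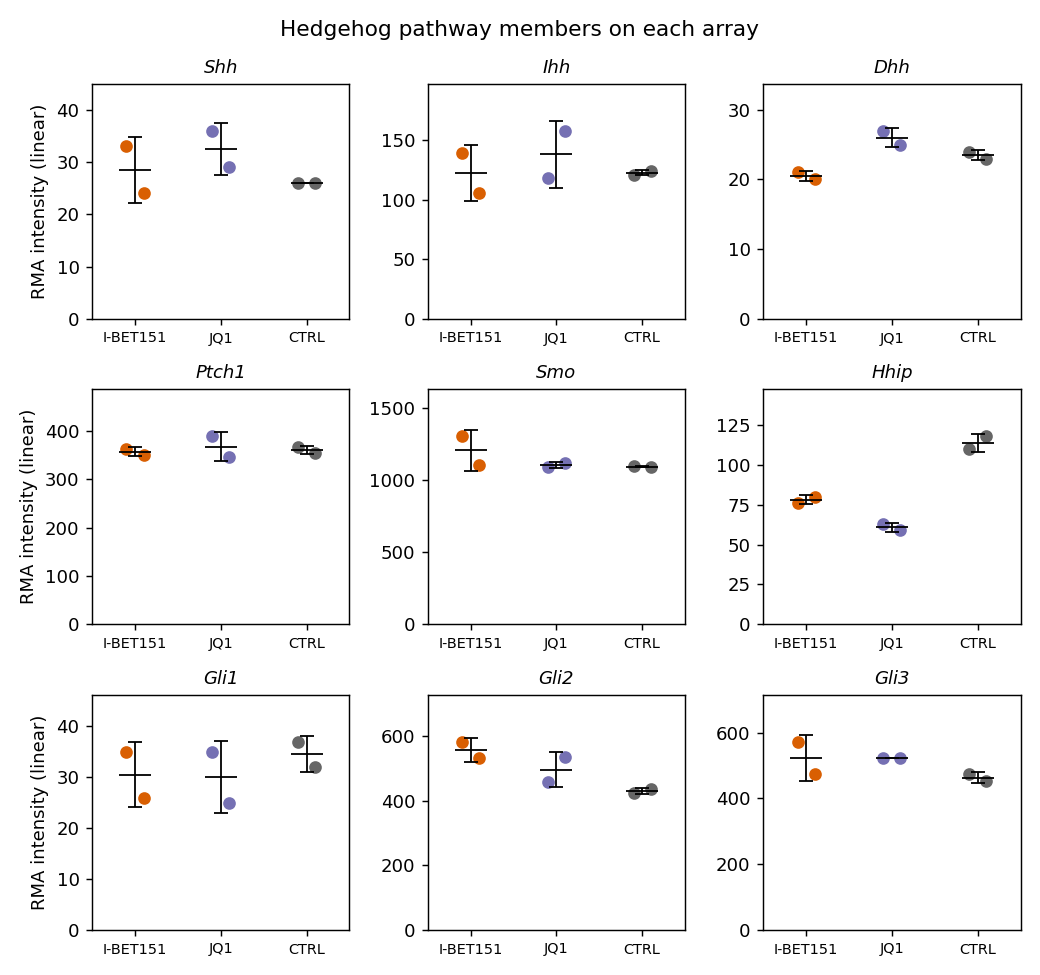
Intensity (linear RMA scale, each axis starting at 0) of the 9 members on every array, by group from left to right I-BET151, JQ1 and CTRL; points are arrays, bars the mean and whiskers the SD (n = 2). Hhip separates all 3 groups, from 59 to 118, whereas the Ptch1 arrays overlap between 346 and 389.

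Markers of other cells of the bud differed between the same groups. Hhip is known from mesenchyme and endothelium in embryonic organs. The summed intensity of 9 mesenchyme markers was 12956 to 13369 under I-BET151, 12631 to 12743 under JQ1 and 15088 to 15628 in CTRL. Of these, 2 (Postn and Dcn) fell under I-BET151 and 3 (these and Prrx1) under JQ1. Among all genes, 0.87% and 2.67% were called lower. The log2 change was negative for 8 and 9 of the markers. Vim, the largest part of the sum, stood at -0.10 under each compound and was not called. Col1a2 (-0.03 and -0.25) and Col3a1 (0.02 and -0.09) were not called either. The 7 endothelial markers summed to 3991 to 4241 under I-BET151, 3698 to 3794 under JQ1 and 5550 to 5659 in CTRL, with 2 and 5 falls. The 8 markers of pancreatic epithelium summed to 4533 to 4707 under I-BET151, 4395 to 5096 under JQ1 and 4630 to 4673 in CTRL, and the groups overlapped. Sox9 and Cdh1 carried most of that sum, and 1 of the 8, Mnx1, rose under JQ1, at 103 and 95 under I-BET151, 94 and 108 under JQ1, and 67 and 61 in CTRL (limma adjusted p = 0.0466 for JQ1). None of these markers lay at the lowest value of the table. Whether the change of Hhip follows these cell types was not tested, and in whole buds fewer cells of a type and less RNA per cell cannot be told apart.

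Ptch1, the Hedgehog receptor and a direct Gli target, measured 363 and 350 under I-BET151, 389 and 346 under JQ1, and 367 and 355 in CTRL. All 3 groups overlapped. Its change was -0.02 on the log2 scale under I-BET151 (95% interval -0.22 to 0.19, limma adjusted p = 0.948) and 0.02 under JQ1 (-0.18 to 0.23, limma adjusted p = 0.910). With each array centred on its median, the first value turned to 0.03. The intervals do not show that Ptch1 was unaffected.

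Gli1, the activator that is itself induced by the pathway, gave dim values of 35 and 26 under I-BET151, 35 and 25 under JQ1, and 37 and 32 in CTRL. The groups overlapped, and the second array was the lower one in every group, CTRL included. Its spread within groups was large, with an SD of 0.28 on the log2 scale that exceeded that of 95.2% of genes. Gli1 differed from CTRL by -0.19 ± 0.23 under I-BET151 and -0.22 ± 0.23 under JQ1 (limma adjusted p = 0.706 and 0.652). The intervals, -0.78 to 0.40 and -0.81 to 0.37, both include 0. The first also includes the change of Hhip under I-BET151, -0.55. The second does not reach the change of Hhip under JQ1, -0.90. The difference between Gli1 and Hhip was not tested.

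Gli2, the main activator downstream of Smo, measured 582 and 530 under I-BET151, 457 and 534 under JQ1, and 424 and 436 in CTRL. All 4 inhibitor arrays lay above both CTRL arrays, and 29.4% of all genes had these 4 arrays on one side of CTRL. Gli2 stood at a log2 change of 0.37 ± 0.10 under I-BET151 (95% interval 0.11 to 0.63, limma adjusted p = 0.164) and 0.20 ± 0.10 under JQ1 (-0.06 to 0.46, limma adjusted p = 0.344). Neither was called, although with a variance prior that was both robust and fitted to an intensity trend the I-BET151 value passed (limma adjusted p = 0.0260).

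Gli3, which acts mostly as a repressor in the absence of ligand, measured 573 and 474 under I-BET151, 522 and 523 under JQ1, and 475 and 452 in CTRL. The JQ1 arrays lay above both CTRL arrays and the I-BET151 arrays did not. The log2 changes were 0.17 ± 0.11 and 0.17 ± 0.11 under I-BET151 and JQ1 (limma adjusted p = 0.466 and 0.432).

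Smo, the transmembrane protein that carries the signal to the Gli factors, measured 1307 and 1109 under I-BET151, 1090 and 1119 under JQ1, and 1099 and 1093 in CTRL. One I-BET151 array stood apart from the other 5. The log2 change was 0.14 ± 0.09 under I-BET151 and 0.01 ± 0.09 under JQ1 (limma adjusted p = 0.514 and 1.00).

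**Figure D2:**
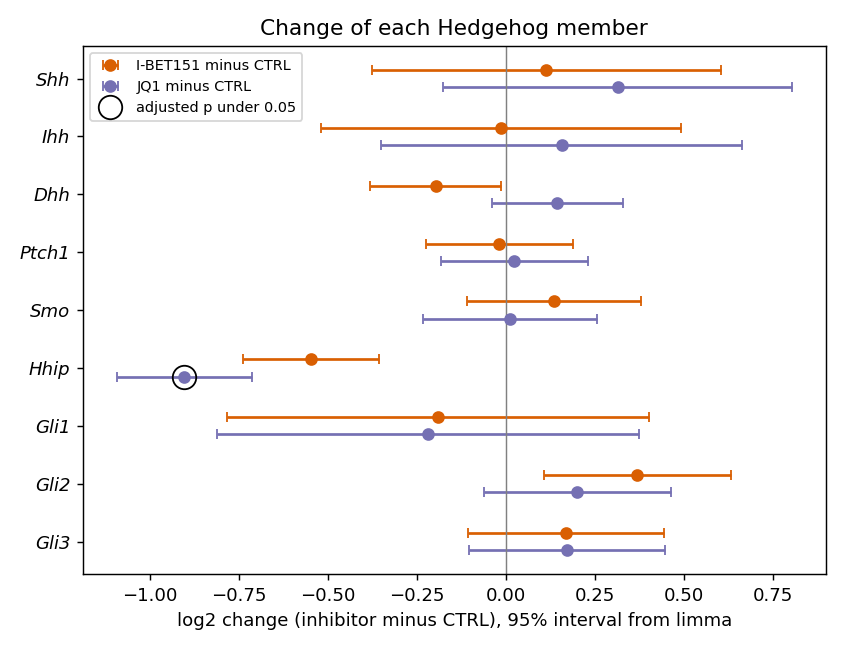
Log2 change of each member (x axis, inhibitor minus CTRL) for I-BET151 and JQ1, as points with 95% intervals from limma; a ring marks an adjusted p under 0.05. Only the JQ1 value of Hhip, at -0.90, is ringed, and the intervals of Shh, Ihh, Ptch1, Smo, Gli1 and Gli3 cross 0 for both compounds.

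Shh, the ligand of gut epithelium that early pancreatic endoderm excludes, was dim on every array. It measured 33 and 24 under I-BET151, 36 and 29 under JQ1, and 26 on both CTRL arrays. The JQ1 arrays lay above CTRL and the I-BET151 arrays lay on either side of it. The log2 change was 0.11 ± 0.19 under I-BET151 and 0.31 ± 0.19 under JQ1 (limma adjusted p = 0.799 and 0.424). At this intensity a rounding step of 1 unit is worth 0.05 on the log2 scale, and there are no detection calls, so whether Shh was transcribed at all could not be read from these arrays.

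Markers of the epithelia where Shh is normally strong were also dim. The 9 stomach and intestine markers lay between 16 and 45 on every array, all 9 below the median of gene means, and 1 of them, Vil1, fell under both compounds. None of 4 stomach mesenchyme markers was called by limma, and they did not move one way. Isl1, listed also for early endocrine cells, measured 877 and 702 under I-BET151, 896 and 802 under JQ1, and 715 and 638 in CTRL. The list therefore does not read stomach mesenchyme alone. The transcription factor gene Barx1 was measured at 1261 and 1472 under I-BET151, 1508 and 1612 under JQ1, and 1290 and 1268 in CTRL. Nkx2-5, another factor of the list, lay lower on all inhibitor arrays, at 337 and 355 under I-BET151, 313 and 326 under JQ1, and 390 and 408 in CTRL. The inhibitor arrays lay on one side of CTRL for 29.4% of all genes. Of the 4 markers, 1 had an unadjusted limma p under 0.05 under I-BET151 and 2 under JQ1. Among all genes, 18.9% and 21.6% did.

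Ihh, the ligand used later by gut and islet cells, measured 139 and 106 under I-BET151, 118 and 158 under JQ1, and 121 and 124 in CTRL. The inhibitor arrays lay on both sides of the CTRL arrays. Its log2 differences from CTRL were -0.01 ± 0.19 under I-BET151 and 0.16 ± 0.19 under JQ1 (limma adjusted p = 1.00 and 0.701).

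Dhh, the ligand of Schwann cells and some endothelium, measured 21 and 20 under I-BET151, 27 and 25 under JQ1, and 24 and 23 in CTRL. The I-BET151 arrays lay below and the JQ1 arrays above both CTRL arrays, by 1 to 4 units of a rounded scale in which 1 unit is worth 0.06 on the log2 scale. The log2 change was -0.20 ± 0.07 under I-BET151 and 0.14 ± 0.07 under JQ1 (limma adjusted p = 0.239 and 0.327). The 6 markers of glia and neural crest, a cell type that can make Dhh, summed to 883 to 1058 under I-BET151, 826 to 949 under JQ1 and 1825 to 1896 in CTRL. Fabp7 and Ednrb carried that difference: Ednrb fell under both compounds and Fabp7 under JQ1, while Erbb3, Foxd3, Sox10 and S100b were not called. Their part in the Dhh values was not tested.

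Counting placement alone, 4 of the 9 members under I-BET151 (Hhip, Gli2, Smo and Dhh) and 5 under JQ1 (Hhip, Gli2, Gli3, Shh and Dhh) had both inhibitor arrays on one side of both CTRL arrays. These shares lie near the background, which was 42.1% of all genes for I-BET151 and 44.9% for JQ1.

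The doses of the compounds differ, so the difference between them describes these treatments as used. Hhip was lower under JQ1 than under I-BET151 by a log2 difference of -0.35 ± 0.07 (95% interval -0.55 to -0.17), and Dhh was higher by 0.34 ± 0.07 (0.16 to 0.53). Neither was called (limma adjusted p = 0.718 each). For this comparison 0 of 24010 genes (0%) were called by limma, while 1610 genes, 2 members among them, had an unadjusted p under 0.05 and 6 genes passed with an intensity trend and robust prior. For the other 7 members the intervals of the difference included 0. They were narrowest for Ptch1, from -0.17 to 0.25, and widest for Gli1, from -0.62 to 0.56.

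A further 65 named genes of the pathway in 6 lists were read from the same fit. Under I-BET151, 0 of them rose and 1 fell, against 0.262% of all genes called higher and 0.87% called lower. Under JQ1, 1 rose and 2 fell, against 1.13% and 2.67%. For the mean of both, 4 rose and 2 fell, against 1.59% and 3.33%. The 6 genes called in any of these were Hhat, Scube1, Cdon, Kif3a, Ift88 and Ccnd1.

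Among 6 genes of ligand maturation and release, Hhat fell and Scube1 rose. Hhat, the acyltransferase that attaches palmitate to the ligands, measured 101 and 108 under I-BET151, 94 and 79 under JQ1, and 170 and 189 in CTRL. All inhibitor arrays lay below both CTRL arrays, and 29.4% of all genes had these arrays on one side of CTRL. Hhat fell 2.08-fold under JQ1 (log2 change -1.06 ± 0.11, limma adjusted p = 0.0241) and missed the threshold under I-BET151 at -0.78 ± 0.11 (limma adjusted p = 0.0650). Scube1, a secreted protein of the family that helps release the ligands, measured 794 and 839 under I-BET151, 783 and 791 under JQ1, and 565 and 613 in CTRL. It was called for the mean of both inhibitors, with a log2 change of 0.45 ± 0.06 (limma adjusted p = 0.0325). The transporter gene Disp1, which exports the ligands, stood at 0.23 and 0.19 under I-BET151 and JQ1 and was not called.

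All 5 measured co-receptor and binding genes were higher under both compounds, with a median log2 change of 0.27 under each, and all 5 had non-overlapping arrays, as 42.1% and 44.9% of all genes did. Cdon, a cell-surface co-receptor, measured 270 and 251 under I-BET151, 263 and 259 under JQ1, and 186 and 194 in CTRL. It rose 1.37-fold under JQ1 (log2 change 0.46 ± 0.07, limma adjusted p = 0.0402) and reached an equal ratio under I-BET151 without passing (limma adjusted p = 0.0648). Lrp2, an endocytic co-receptor, measured 110 and 95 under I-BET151, 113 and 94 under JQ1, and 57 and 71 in CTRL. Its log2 changes of 0.68 ± 0.16 and 0.70 ± 0.16 were not called (limma adjusted p = 0.132 and 0.0940). Gas1, which helps Ptch1 bind Shh, stood at 0.27 under each compound, and Gpc3, which competes with Ptch1 for ligand, at 0.15 and 0.14. Neither was called, and Boc, the paralogue of Cdon, had the smallest values, 0.09 and 0.02.

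None of 19 genes between Smo and the Gli factors was called, with medians of 0.04 and 0.08 under I-BET151 and JQ1. Of these, 5 had an unadjusted limma p under 0.05 in each comparison, where 18.9% and 21.6% of all genes did. Tulp3, a ciliary trafficking repressor of the pathway, stood at 0.26 and 0.33 (limma adjusted p = 0.152 and 0.0755). Prkaca, the protein kinase A subunit whose activity promotes Gli repressor formation, stood at 0.31 and 0.24, and Evc2, a ciliary partner of Smo, at -0.30 and -0.45. Mosmo, which lowers Smo at the cell surface, measured 509 and 489 under I-BET151, 453 and 408 under JQ1, and 400 and 383 in CTRL and was not called.

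Of 14 genes of ciliary transport, on which mammalian Hedgehog signalling depends, none was called under either compound alone, with medians of 0.13 and 0.08; 3 and 4 had an unadjusted limma p under 0.05, again beside 18.9% and 21.6% of all genes. For the mean of both inhibitors 2 rose. Kif3a, a motor subunit of anterograde transport, measured 558 and 530 under I-BET151, 527 and 503 under JQ1, and 404 and 405 in CTRL (mean change 0.39 ± 0.05, limma adjusted p = 0.0333). Ift88, a core component of the transport particles, measured 296 and 320 under I-BET151, 297 and 274 under JQ1, and 229 and 216 in CTRL (mean change 0.41 ± 0.07, limma adjusted p = 0.0469). In both genes, which were named for their small p in this mean, all 4 inhibitor arrays lay above both CTRL arrays. Of all genes, 29.4% had these 4 arrays on one side of CTRL.

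Among 17 genes reported as Gli targets in other tissues, only Ccnd1 was called. This cyclin gene, which answers to many pathways, fell 1.83-fold under I-BET151 and 1.96-fold under JQ1. The median of the list was -0.12 under I-BET151 and 0.00 under JQ1. Nkx3-2, a factor of pancreatic and splenic mesenchyme, measured 375 and 381 under I-BET151, 315 and 357 under JQ1, and 286 and 336 in CTRL and was not called, nor were Bcl2 and Foxc2. The 4 genes of notochord signals and activin receptors that keep Shh out of dorsal pancreatic endoderm were not called under either compound. Their log2 changes lay between -0.25 and 0.20 under I-BET151 and between -0.28 and 0.15 under JQ1.

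**Figure D3:**
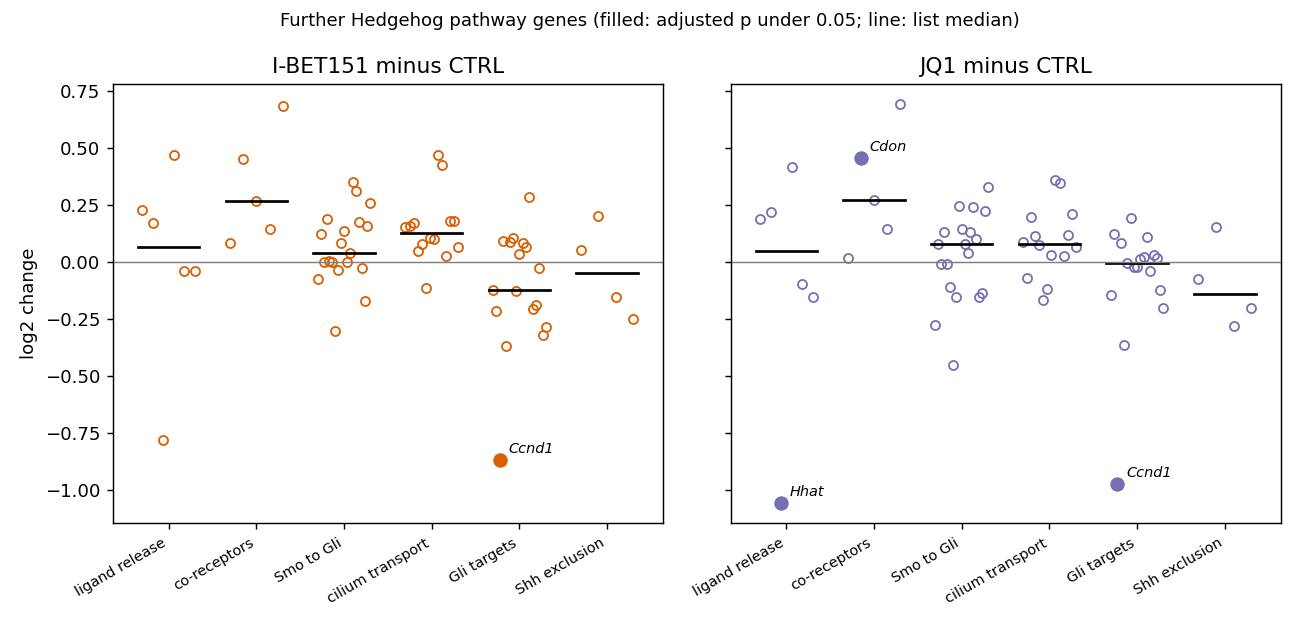
Log2 change (y axis, inhibitor minus CTRL) of 65 further pathway genes in 6 lists, I-BET151 on the left and JQ1 on the right; each point is a gene, filled where the adjusted p was under 0.05, and lines are list medians. Ccnd1 is filled in both panels and Hhat and Cdon under JQ1, while the 5 co-receptor genes all lie above 0.

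The genes whose values over the 6 arrays ran most like Hhip were Utp20 (Pearson r = 0.999), Klhl4 (0.998) and Ttyh1 (0.998), out of 6051 bright and variable genes. Utp20, a component of the small ribosomal subunit processing machinery, measured 299 and 307 under I-BET151, 268 and 262 under JQ1, and 370 and 377 in CTRL. Those most like Ptch1 were Slc10a7 (0.942), Ntn3 (0.934) and Gdf10 (0.929), and those most like Gli1 were Adamtsl1 (0.981), Gata6os (0.974) and Snhg4 (0.973). These correlations describe 6 arrays in 3 groups. The genes were chosen on these arrays, so their differences between groups follow from the choice and were given no test.

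Across the processing choices tried, the log2 change of Hhip stayed below 0 and that of Gli2 above 0 under both compounds, while Ptch1 stayed within 0.11 of 0. Over all alternatives Hhip lay between -0.95 and -0.76 under JQ1 and between -0.60 and -0.47 under I-BET151. Gli2 lay between 0.30 and 0.44 under I-BET151 and between 0.09 and 0.31 under JQ1.

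**Figure D4:**
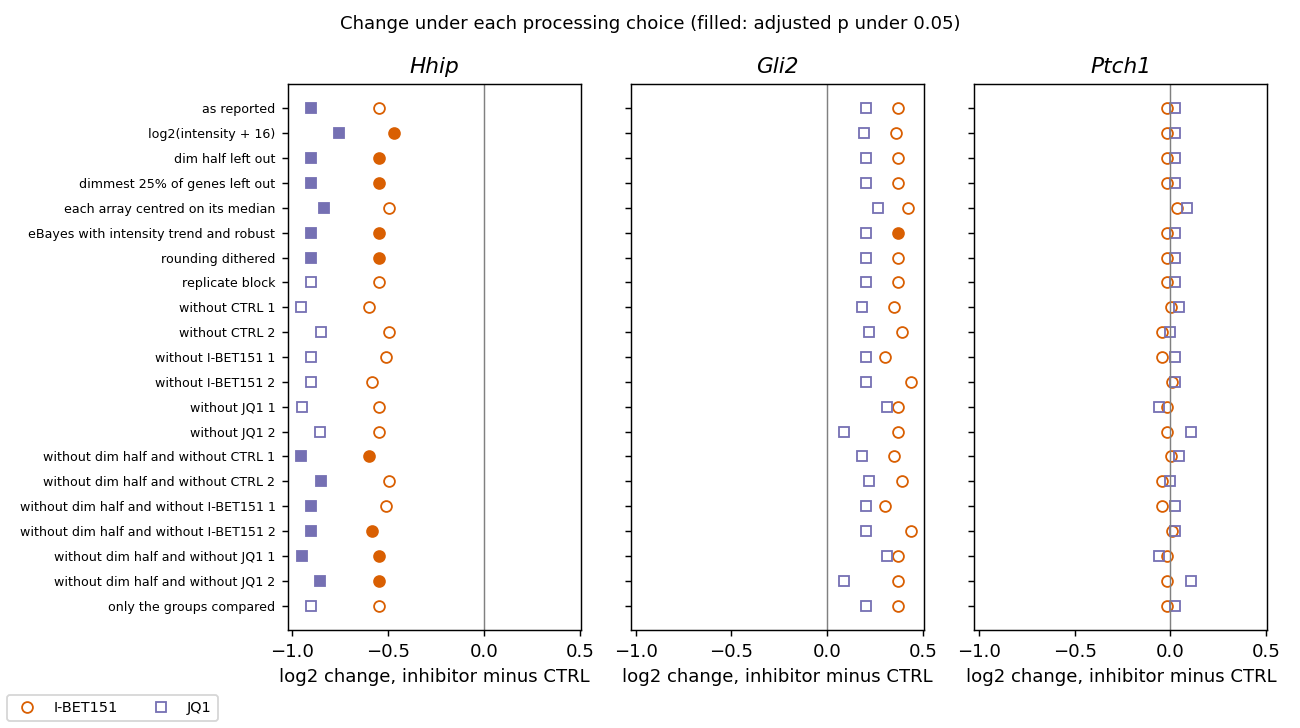
Log2 change (x axis, inhibitor minus CTRL) of Hhip, Gli2 and Ptch1 in each of 21 fits (rows, the reported one on top), circles for I-BET151 and squares for JQ1, filled where the adjusted p was under 0.05; dim genes are those below the median mean intensity. Hhip under JQ1 lies between -0.95 and -0.76 throughout but is unfilled wherever 1 array alone was left out, with the replicate block and with only the compared groups.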

How the data were processed

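RNA of pooled buds was hybridised to Affymetrix whole-transcript arrays, 1 pool per array. The deposited values are intensities that the authors normalized with RMA, per the submitters' processing notes (version not named); they are whole numbers on a linear scale from 5 to 11028, with array medians of 54 to 57. The probe-to-gene summary and the genome build are not given in the sources used here. Because RMA gives all arrays nearly one distribution, a change in total RNA would not show.

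Of 24972 rows, 24014 were named through the platform annotation, with symbols updated by Entrez ID from RefSeq. For 4 symbols with a second row the brighter row was kept. From log2(intensity), limma 3.58.1 in R 4.3.3 was fitted to all 6 arrays with no filter, giving 3 residual and 1.76 prior degrees of freedom, and p-values were adjusted by Benjamini-Hochberg over 24010 genes. The fit was tested on 10 draws of simulated data, with 200 genes at or above the median mean intensity raised under I-BET151. It called 5.9% of the changes of 0.5 on the log2 scale and 36.6% of those of 1. False calls were 1.7 per draw. A gene that was not called may therefore still have changed. Intervals are 95% and unadjusted. The labels do not say whether pools came from separate litters, so p-values reflect variation between pools only, and part of it may be technical; 2 arrays per group limit the precision. Arrays of one group correlated at 0.995 to 0.996.

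The members and lists were chosen with earlier results of these data known. Named further genes were those of at most 4 per list with the smallest p for the mean of both inhibitors (Boc, outside this rule, was added after its values were seen), and the 3 genes most correlated with Ptch1, Gli1 and Hhip among those at or above the median mean intensity with a log2 range of at least 0.3. Marker genes were named from fixed cell type lists. Promoter windows came from RefSeq, where 7 of the 9 members had an entry. Alternatives tried were a pseudocount of 16, filters on dim genes, median centring, a robust prior with an intensity trend, dithered rounding, the compared groups alone, a replicate block and leaving out each array.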

Additional observations from a re-analysis of the deposited data

Results flagged for a closer look

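Dhh stood on opposite sides of the CTRL arrays under the compounds, at 27 and 25 under JQ1 and 21 and 20 under I-BET151, with 24 and 23 in CTRL. The difference, JQ1 minus I-BET151, was 0.34 on the log2 scale with an unadjusted limma p of 0.00519 and an adjusted p of 0.718, so it did not pass over 24010 genes. The members were searched for this placement, and the share of all genes that had it was not counted. At these intensities a rounding step of 1 unit is worth 0.06 on the log2 scale. Hhip had an unadjusted limma p of 0.00521 for the same comparison.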

How the results depend on the processing

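The log2 changes of Hhip and Gli2 kept their sign under every alternative run; calls depended on the settings. In the order I-BET151, JQ1 and both, 272, 912 and 1181 genes were called as reported. The counts were 661, 1615 and 1963 with 16 added to the intensities; 1438, 2373 and 2689 without genes below the median intensity; 798, 1728 and 2044 without the dimmest 25%; 533, 1391 and 1738 with median centring; 1806, 2617 and 3006 with an intensity trend and robust prior; and 594, 1332 and 1526 with dithered rounding. JQ1 minus I-BET151 gave 0 genes in every fit except 6 with the trend and robust prior. With only the compared groups fitted, 0 genes passed for either compound. With 1 array left out the counts were 0, and with dim genes also left out 395 to 1059, 968 to 2221 and 994 to 2331. Members called under I-BET151 were 1 with the pseudocount, with either filter and with dithering, and 2 (Hhip and Gli2) with the trend and robust prior; under JQ1 0 with only the compared groups; for both, 2 with the trend and robust prior. With 1 array left out, 0 members were called in each comparison; with dim genes also left out, 0 to 1 under I-BET151, 1 under JQ1 and 1 to 2 for both. The replicate block called 0 genes and 0 members in each comparison, Hhip under JQ1 staying at -0.90 (limma adjusted p = 0.0634); same-numbered arrays did not deviate together (r from -0.040 to -0.016), so the numbers were not taken as pairs.

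Median centring turned Ihh (0.038) and Ptch1 (0.033) under I-BET151 and Dhh for both inhibitors (0.032) above 0. With 1 array left out, log2 changes that crossed 0 ran as follows. Under I-BET151 they were -0.12 to 0.34 for Shh, -0.21 to 0.18 for Ihh, -0.044 to 0.0082 for Ptch1 and -0.40 to 0.025 for Gli1. Under JQ1 they were -0.054 to 0.37 for Ihh, -0.061 to 0.11 for Ptch1, -0.0079 to 0.030 for Smo and -0.46 to 0.025 for Gli1. For both they were -0.033 to 0.18 for Ihh, -0.057 to 0.0047 for Dhh and -0.040 to 0.045 for Ptch1. For JQ1 minus I-BET151 they were -0.030 to 0.43 for Shh, -0.041 to 0.38 for Ihh, -0.043 to 0.13 for Ptch1, -0.27 to 0.21 for Gli1 and -0.13 to 0.14 for Gli3. The causes were not tested, except that leaving out arrays or groups leaves fewer degrees of freedom. Shh, Dhh and Gli1 lie below the median intensity, where rounding and background weigh most.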
